A study of Chlorocebus sabaeus with 3 samples.

Results

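Leukocytes of the ocular surface were followed through 42 genes that mark their lineages, read from whole-tissue arrays of the conjunctiva, the limbus and the cornea of the vervet monkey (Chlorocebus sabaeus). The genes were taken as a fixed list of lineage markers, chosen with earlier results of these data known. They were grouped here as genes of T cells (12), B and plasma cells (4), myeloid cells (11), dendritic cells (5) and mast cells (2). A last group held genes that leukocytes of many kinds share (8). A gene was read from array probe sets that carry its symbol alone, and where it had several, the brightest of them by mean log2 value over the 3 tissues stood for it. By this rule 40 of the 42 genes were measured, among 19775 genes in all. CD68, whose probe set carries a further symbol, and MS4A2 were not analysed here.

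There was 1 array for each of the 3 tissues, hybridized with RNA that had been amplified in successive rounds. Per the study, the tissues came from the same eye, and the animals' age is given only as a range that is not tied to a sample. The corneal sample was the center of the cornea, the limbal sample a narrow rim around it, and each held the epithelium with the upper part of the stroma, while the conjunctiva was taken with the Tenon layer beneath it. The probes were designed on human sequence, and the values are intensities on a linear scale after RMA (robust multi-array average) normalization by the authors. A tissue with a single array has no replicate error to set a difference against, so no test was made and no p-value is given, and differences are read against the same measure over all 19775 genes.

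The cornea is normally free of blood vessels and holds few leukocytes, most of them dendritic cells and macrophages, whereas the conjunctiva is a vascular mucosa with T cells, plasma cells, macrophages and mast cells in and beneath its epithelium. The limbus lies between them and carries the vessel loops that end at the corneal edge. In tissue RNA, fewer cells of a kind and less RNA of a gene per cell cannot be told apart.

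The tissue labels were checked first. KRT12, the keratin of the corneal epithelium, read 54.3 in conjunctiva, 2633 in limbus and 8068 in cornea, and MUC5AC, the mucin of goblet cells, read 1618 in conjunctiva, 127 in limbus and 102 in cornea. Over all probe sets the arrays had medians between 48.8 and 50.7. GAPDH controls at the 3′ end read 3.83 times those at the 5′ end for conjunctiva, 3.12 times for limbus and 4.58 times for cornea, a ratio that rises as the amplified RNA shortens. Its part in the differences below was not tested.

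All 40 leukocyte genes measured were higher in the conjunctiva than in the cornea in the deposited values, and all but CD4 were so with the arrays quantile normalized together or each divided by its median. For all genes on the array, the conjunctiva was above the cornea in 49.4%. In conjunctiva 25 of the 40 genes had a value of 100 or more, in limbus 16 and in cornea 8, whereas over all genes the numbers were alike, at 9904, 9801 and 9514. The 8 in the cornea were CD3D, CD247, CD79A, CSF1R, AIF1, IRF8, LAPTM5 and CD48. The median difference of the 40 genes, conjunctiva minus cornea, was 0.93 on the log2 scale, against -0.01 for all genes. A difference of at least 2-fold in favor of the conjunctiva was reached by 16 of the 40 genes (40%), compared with 5.68% of all genes. A difference of that size in favor of the cornea was reached by 0 of the 40, compared with 5.31% of all genes.

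**Figure D1:**
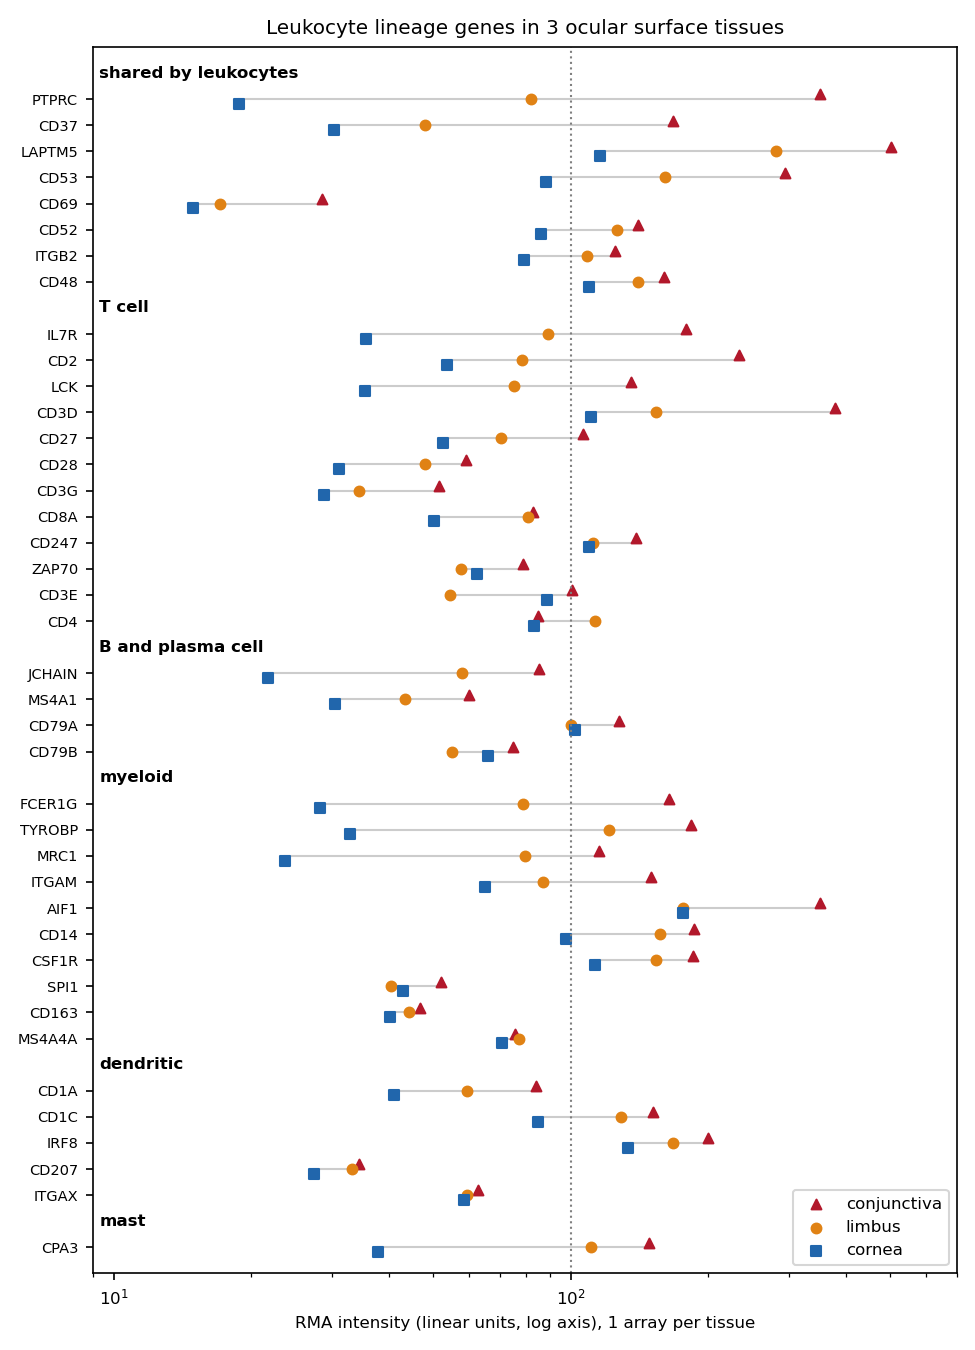
RMA intensity (linear units on a log axis) of the 40 leukocyte genes measured, from 1 array each of the conjunctiva (triangles), the limbus (circles) and the cornea (squares), grouped by lineage and ordered within a group by the difference between conjunctiva and cornea; the dotted line marks 100. Every triangle lies to the right of its square, from CD4, where they nearly coincide and where the order turns after quantile or median scaling, to PTPRC, where they are 18.7-fold apart.

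**Figure D2:**
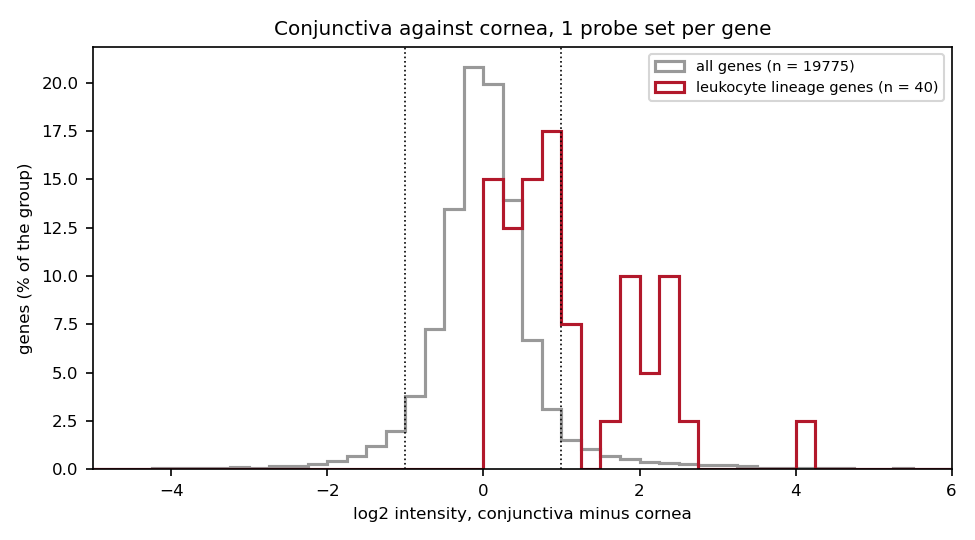
Distribution of the log2 intensity difference, conjunctiva minus cornea, for all 19775 genes (grey) and for the 40 leukocyte genes (red), each as a percentage of its group, with 1 probe set per gene and 1 array per tissue; the dotted lines mark a 2-fold difference. The distribution of all genes is centered near 0, the leukocyte genes lie above 0 (CD4 falls below it after quantile or median scaling), and 16 of them lie beyond the right dotted line.

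The largest difference belonged to PTPRC, which encodes CD45, the tyrosine phosphatase on the surface of leukocytes. PTPRC read 352 in conjunctiva, 81.9 in limbus and 18.8 in cornea. The conjunctiva was 18.7-fold above the cornea and 4.29-fold above the limbus, and the limbus was 4.35-fold above the cornea. Of all genes, 99.8% had a smaller difference between conjunctiva and cornea. PTPRC had 4 further probe sets, and they were dim. The brightest of these read 71.1, 35.3 and 27.3 in the conjunctiva, limbus and cornea, which is 2.60-fold between conjunctiva and cornea. Of the rest, 2 kept the direction and 1 was highest in the cornea at 11.6, against 9.41 in the conjunctiva. The size of the PTPRC difference therefore rests on 1 probe set.

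Other genes shared by leukocytes divided into genes that were far apart and genes that were not. LAPTM5, a lysosomal membrane protein of blood cells, read 501 in conjunctiva, 281 in limbus and 116 in cornea, and its other probe set repeated the order at 161, 88.4 and 35.3. The difference between conjunctiva and cornea was 4.33-fold on the brighter and 4.55-fold on the dimmer of them. CD37 and CD53 encode tetraspanins, membrane proteins that organize receptors on leukocytes. CD37 read 167 in conjunctiva, 48.1 in limbus and 30.3 in cornea, so that the larger step, 3.48-fold, lay between conjunctiva and limbus. CD53 read 294 in conjunctiva, 161 in limbus and 88.2 in cornea, an even descent with 3.34-fold between its ends. The second CD37 probe set and the 2 further CD53 probe sets stayed under 40 in all tissues. On 1 of those for CD53 the conjunctiva was lowest, at 16.1 against 19.2 in the cornea.

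The remaining shared genes did not reach 2-fold on the probe set that stood for them. CD48, a ligand of signaling receptors on lymphocytes, read 159.9 in conjunctiva, 140.5 in limbus and 109.8 in cornea. CD69, a membrane protein induced by activation and found on tissue-resident lymphocytes, was dim throughout at 28.6, 17.1 and 14.9, in the same order. For CD52 and ITGB2 the size depended on the probe set. CD52, a short surface glycopeptide of lymphocytes, read 140.4 in conjunctiva, 126 in limbus and 86.0 in cornea on its brightest probe set, a ratio of 1.63 between conjunctiva and cornea, while the other read 129, 87.3 and 21.6, a ratio of 5.98. ITGB2, the beta chain that pairs with the leukocyte integrins ITGAM and ITGAX, read 125 in conjunctiva, 108 in limbus and 78.9 in cornea (1.58-fold), and 69.9, 49.5 and 23.7 on its dimmest probe set (2.95-fold). In each case the conjunctiva was highest, the limbus next and the cornea lowest.

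The T cell genes encode the receptor complex, its kinases and the co-receptors. Of the 12 genes, 5 had a difference of at least 2-fold in favor of the conjunctiva over the cornea (5.68% of all genes). The highest value was in the conjunctiva for 11 of the 12, compared with 7256 of all 19775 genes. Among the chains of the T cell receptor complex, CD3D read 378 in conjunctiva, 154 in limbus and 111 in cornea, with the conjunctiva 3.42-fold above the cornea and 2.45-fold above the limbus. The other chains were less far apart. CD3G read 51.6 in conjunctiva, 34.5 in limbus and 28.9 in cornea, and CD3E read 101 in conjunctiva, 54.4 in limbus and 88.5 in cornea, so that CD3E was lowest in the limbus. The zeta chain CD247 read 139 in conjunctiva, 112 in limbus and 109.6 in cornea, but its second probe set read 107, 59.1 and 43.2, a difference of 2.46-fold between conjunctiva and cornea. The 4 chains thus had the same highest tissue and differed in how far the other tissues lay below it.

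CD2, an adhesion receptor of T and natural killer cells, followed CD3D closely. It read 234 in conjunctiva, 78.1 in limbus and 53.5 in cornea, and the conjunctiva was 4.37-fold above the cornea and 2.99-fold above the limbus. IL7R, the alpha chain of the receptor for the T cell survival factor interleukin 7, read 178 in conjunctiva, 89.3 in limbus and 35.7 in cornea, the largest difference between conjunctiva and cornea among the T cell genes at 4.99-fold. Its other probe set read 63.5, 50.5 and 46.2, in the same order. LCK, the kinase that phosphorylates the CD3 chains, read 136 in conjunctiva, 75.2 in limbus and 35.4 in cornea (3.83-fold between conjunctiva and cornea). On the dimmer LCK probe set the values were 77.1, 53.9 and 49.3, in the same order, and the difference was 1.56-fold. ZAP70, the kinase that binds the phosphorylated chains, had values of 78.7, 57.6 and 62.5, and its second probe set was highest in the cornea at 70.3 against 63.2 in the conjunctiva.

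The co-stimulatory receptors CD27 and CD28 were both ordered from conjunctiva to cornea on the probe sets that stood for them. CD27 read 106 in conjunctiva, 70.2 in limbus and 52.4 in cornea, which is 2.03-fold between the ends and falls under 2-fold after quantile or median scaling. CD28 read 59.1 in conjunctiva, 47.9 in limbus and 31.1 in cornea (1.90-fold). Another CD28 probe set, dim at 18.8, 14.9 and 13.5, kept the order at 1.40-fold. On a further dim CD28 probe set the limbus was lowest, with 15.9 in conjunctiva, 11.2 in limbus and 13.6 in cornea. The co-receptors behaved differently from each other. CD8A, of cytotoxic T cells, was nearly equal in the conjunctiva (82.5) and the limbus (80.5) and lower in the cornea (50.2). CD4, of helper T cells and also of macrophages, was highest in the limbus, with 84.7 in conjunctiva, 113 in limbus and 83.3 in cornea. Its other probe set was dim and highest in the conjunctiva, with 24.8 in conjunctiva, 20.7 in limbus and 19.6 in cornea.

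Of the B and plasma cell genes, CD79A alone reached 100. JCHAIN, the small protein that joins IgA and IgM into polymers and is made by plasma cells, read 85.4 in conjunctiva, 57.9 in limbus and 21.7 in cornea, and it was the only gene of the 4 with a 2-fold difference, at 3.93-fold between conjunctiva and cornea and 2.66-fold between limbus and cornea. All of its values were under 100. MS4A1, which encodes the B cell antigen CD20, read 59.8 in conjunctiva, 43.3 in limbus and 30.5 in cornea. A second MS4A1 probe set gave 59.2, 36.0 and 31.2, in the same order, and the others were lower. The signaling chains of the B cell receptor, CD79A and CD79B, differed least. CD79A read 127 in conjunctiva, 100.4 in limbus and 102 in cornea, CD79B read 74.8 in conjunctiva, 55.1 in limbus and 65.8 in cornea, and both were lowest in the limbus.

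Among the myeloid genes, 4 of the 10 measured were at least 2-fold higher in the conjunctiva than in the cornea (5.68% of all genes). The adaptor proteins TYROBP and FCER1G, which carry signals of activating and Fc receptors in macrophages, mast cells and natural killer cells, had the largest differences. FCER1G read 164 in conjunctiva, 78.6 in limbus and 28.3 in cornea, with the conjunctiva 5.80-fold above the cornea. TYROBP read 183 in conjunctiva, 121 in limbus and 32.8 in cornea, with 5.58-fold between conjunctiva and cornea and 3.69-fold between limbus and cornea. The second FCER1G probe set kept the order at 40.7, 32.4 and 25.3. MRC1, the mannose receptor of tissue macrophages, read 115 in conjunctiva, 79.4 in limbus and 23.7 in cornea, a 4.86-fold difference between conjunctiva and cornea. For each of these genes the limbus was nearer on the log2 scale to the conjunctiva than to the cornea.

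ITGAM, the integrin chain CD11b of monocytes, macrophages and granulocytes, read 149.9 in conjunctiva, 86.9 in limbus and 65.0 in cornea (2.30-fold between conjunctiva and cornea). On its second probe set the order was turned, with 67.2, 75.5 and 81.7, so the direction for ITGAM depended on the probe set. AIF1, a calcium-binding protein of macrophages, read 351 in conjunctiva, 176 in limbus and 176 in cornea, which at 2.00-fold lay just under the 2-fold limit, and the limbus and the cornea were equal within 1%. The other bright AIF1 probe sets read 284, 96.9 and 91.5, and 383, 161 and 153, both over 2-fold between conjunctiva and cornea. All of these AIF1 probe sets end in _x_at, the suffix for probes that can also bind other transcripts.

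The other myeloid genes were closer together. CD14, the co-receptor for bacterial lipopolysaccharide, read 186 in conjunctiva, 157 in limbus and 97.7 in cornea, and CSF1R, the receptor for macrophage colony-stimulating factor, read 185 in conjunctiva, 153 in limbus and 113 in cornea. Both were ordered from conjunctiva to cornea, at 1.91-fold and 1.63-fold. The scavenger receptor CD163, which takes up hemoglobin bound to haptoglobin, had values of 46.9, 44.2 and 40.3 for conjunctiva, limbus and cornea. SPI1, which encodes the transcription factor PU.1, had 52.0, 40.3 and 43.0, and MS4A4A, a macrophage membrane protein, had 75.6, 77.1 and 70.7, in the same order. CD163, SPI1 and MS4A4A were under 100 in each tissue and at most 1.21-fold apart between conjunctiva and cornea.

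Of the 5 dendritic cell genes, CD1A passed 2-fold. CD1A and CD1C encode proteins that present lipid antigens, and CD1A is a mark of Langerhans cells. CD1A read 83.9 in conjunctiva, 59.4 in limbus and 41.0 in cornea (2.05-fold between conjunctiva and cornea), all under 100, and it fell under 2-fold after quantile or median scaling. CD1C read 152 in conjunctiva, 129 in limbus and 84.8 in cornea, with the limbus near the conjunctiva. CD207, which encodes the Langerhans cell lectin langerin, was dim and close to level at 34.5, 33.3 and 27.5. IRF8, a transcription factor of dendritic cells and B cells, read 199 in conjunctiva, 168 in limbus and 133.3 in cornea, and ITGAX, the integrin chain CD11c, read 62.7, 59.4 and 58.5, in the same order. The dendritic genes had the smallest median difference between conjunctiva and cornea of the groups with more than 1 gene, 0.58 on the log2 scale, compared with 0.64 for B and plasma cell genes, 0.88 for T cell genes, 0.97 for myeloid genes and 1.34 for shared genes. Differences between these medians were not tested.

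CPA3, the carboxypeptidase of mast cell granules, was the 1 mast cell gene measured. It read 148 in conjunctiva, 111 in limbus and 37.9 in cornea, with the conjunctiva 3.92-fold and the limbus 2.92-fold above the cornea. The conjunctiva and the limbus were 1.34-fold apart.

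**Figure D3:**
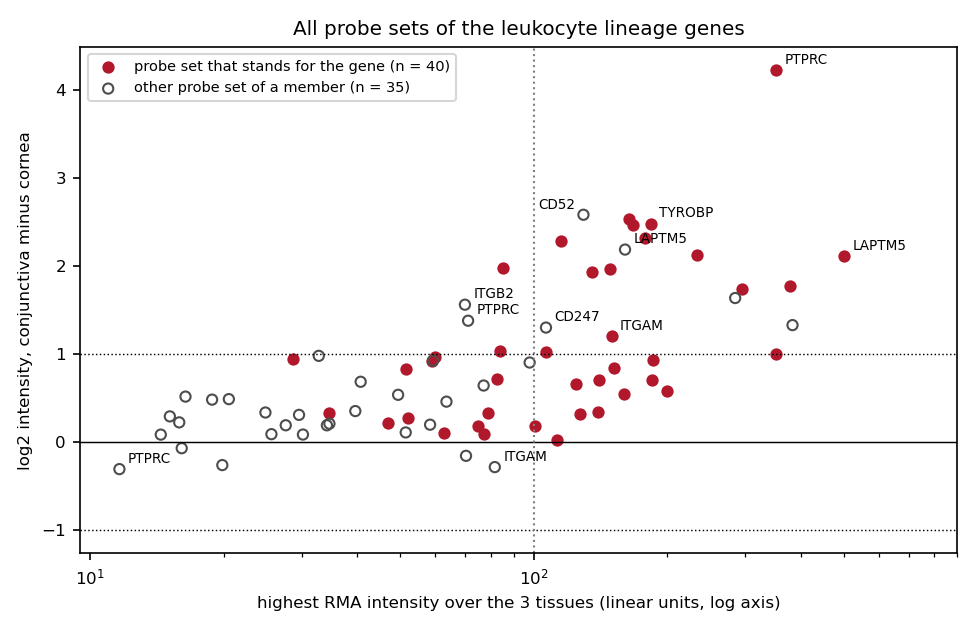
Log2 intensity difference, conjunctiva minus cornea, of all 75 probe sets of the 40 leukocyte genes against their highest RMA intensity over the 3 tissues (log axis), with the probe set that stood for a gene filled and the 35 others open; dotted lines mark a 2-fold difference and a value of 100. Most points lie above 0, and the 5 points under 0 are other probe sets whose values stay under 100.

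The other probe sets of the same genes were the only internal check. The 40 genes had 75 probe sets, of which 70 were higher in the conjunctiva than in the cornea. The 5 exceptions, on PTPRC, CD53, MS4A4A, ITGAM and ZAP70, were not the probe sets that stood for the gene. Of the 35 other probe sets, 30 were higher in the conjunctiva and 7 were at least 2-fold higher. For the 16 genes with a 2-fold difference, 8 had other probe sets, and of these 12 probe sets 9 were higher in the conjunctiva and 2, of PTPRC and LAPTM5, were at least 2-fold higher. The other probe sets past 2-fold belonged to AIF1, CD247, CD52 and ITGB2. When a gene was counted on any of its probe sets, 20 of the 40 genes had a 2-fold difference, adding AIF1, CD247, CD52 and ITGB2, against 7.26% of all genes counted that way. This count was chosen after the values had been seen.

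The limbus was compared with its neighbors. It was above the cornea for 35 of the 40 genes, against 45.4% of all genes, and below the conjunctiva for 38, with the conjunctiva above the limbus in 53.5% of all genes. For 33 of the 40 genes the limbus lay between the other tissues, compared with 42.1% of all genes. The exceptions in the deposited values were CD4 and MS4A4A, highest in the limbus, and CD3E, ZAP70, CD79A, CD79B and SPI1, lowest there. The median difference of the 40 genes was 0.47 for limbus minus cornea and 0.46 for conjunctiva minus limbus on the log2 scale, where all genes had -0.05 and 0.04. At least 2-fold above the cornea in the limbus were 9 of the 40 genes (4.06% of all genes), namely PTPRC, LAPTM5, IL7R, LCK, JCHAIN, TYROBP, FCER1G, MRC1 and CPA3. Of these, TYROBP, CPA3 and LAPTM5 reached 100 in the limbus. No gene of the 40 was at least 2-fold lower in the limbus than in the cornea, against 2.51% of all genes.

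Between the conjunctiva and the limbus 5 of the 40 genes were at least 2-fold apart, PTPRC, CD37, CD2, CD3D and FCER1G, all higher in the conjunctiva, where 2.31% of all genes had such a difference. These 5 were the genes at least 2-fold higher in the conjunctiva than in both other tissues, against 1.68% of all genes. In favor of the limbus over the conjunctiva there were 0, against 2.62% of all genes. By the same measure of 2-fold above both others, 0 of the 40 genes were counted for the limbus (0.475% of all genes) and 0 for the cornea (1.89%). With the hybridization controls of each array as its scale, all genes shifted together, to a median of -0.29 for conjunctiva minus limbus, where the 40 genes had 0.14. On that scale the conjunctiva was above the limbus for 25 of the 40 genes and for 23.3% of all genes, and the limbus was above the cornea for 39 of the 40 and for 92.0% of all genes. The limbus then lay between the other tissues for 24 of the 40 genes in place of 33, a count not taken over all genes on that scale.

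The place of the limbus differed among the 16 genes with a 2-fold difference between conjunctiva and cornea. On the log2 scale, with the cornea at 0% and the conjunctiva at 100%, the limbus lay at a median of 53.9%. It was lowest for CD2 (25.6%), CD3D (27.0%) and CD37 (27.1%). It was highest for CPA3 (78.4%), MRC1 (76.3%), TYROBP (75.9%) and JCHAIN (71.6%). Within a lineage it varied, since the T cell genes LCK (56.1%) and IL7R (57.0%) lay above CD2 and CD3D, and the myeloid gene ITGAM (34.7%) lay below TYROBP and MRC1. Dividing by the hybridization controls raised the median to 75.6%, with CD37 (47.3%) and CD2 (48.8%) still lowest and CPA3 (95.4%) still highest. For all 16 genes the limbus lay between the other tissues. The same held for 1861 of the 2174 genes on the array with a 2-fold difference between conjunctiva and cornea, so an intermediate limbus was not particular to leukocyte genes.

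Further leukocyte genes, 132 listed and 120 measured, were read the same way. Of the 120 genes, 93 were higher in the conjunctiva than in the cornea (49.4% of all genes), 25 of them at least 2-fold (5.68% of all genes), and a 2-fold difference in favor of the cornea was reached by 2 (5.31% of all genes). Their median difference was 0.37 on the log2 scale. The limbus lay between the other tissues for 60 of the 120 genes (42.1% of all genes). It was lowest for 39 of them, a share like that of all genes, where it was lowest for 6516 of 19775. It was above the cornea for 71 (45.4% of all genes), with a median of 0.08 for limbus minus cornea. The genes shared by leukocytes had the most 2-fold differences in favor of the conjunctiva, 9 of 23 (5.68% of all genes). The neutrophil genes had 0 of 9, which in so short a list is close to the share of all genes.

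Among the shared genes, RAC2, a small GTPase of blood cells, read 994 in conjunctiva, 392 in limbus and 65.1 in cornea, which is 15.3-fold between conjunctiva and cornea. CORO1A, an actin-binding protein of leukocytes, read 576 in conjunctiva, 203 in limbus and 65.6 in cornea, and PTPN22, a phosphatase that restrains T cell receptor signaling, read 267 in conjunctiva, 84.6 in limbus and 30.3 in cornea. The signaling protein HCLS1 had values of 197, 63.8 and 27.4, and LST1 had 265, 116 and 50.7, in the same order. In each of these genes the conjunctiva was highest and the cornea lowest, as for PTPRC.

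For T and natural killer cells, 18 of 23 further genes were higher in the conjunctiva than in the cornea, 5 of them at least 2-fold (5.68% of all genes). The other 5 were higher in the cornea, and the median difference was 0.28 on the log2 scale. TRBC1, a constant segment of the T cell receptor beta chain, read 571 in conjunctiva, 137 in limbus and 98.9 in cornea (5.77-fold between conjunctiva and cornea), and GZMK, a granzyme of cytotoxic T cells, read 119.7 in conjunctiva, 58.9 in limbus and 28.5 in cornea. BCL11B, a transcription factor of T cells that epithelial cells also make, was highest in the limbus, with 254 in conjunctiva, 419 in limbus and 70.1 in cornea. For B and plasma cells, 16 of 19 further genes were higher in the conjunctiva than in the cornea, 4 of them at least 2-fold (5.68% of all genes). The other 3 were higher in the cornea, and the median difference was 0.49 on the log2 scale. The immunoglobulin light chain IGLC1 read 5164 in conjunctiva, 384 in limbus and 115 in cornea, the heavy chain IGHM read 1139 in conjunctiva, 155 in limbus and 127 in cornea, and the light chain IGKC read 748 in conjunctiva, 229.9 in limbus and 166 in cornea. The members of an immunoglobulin family resemble each other, so a probe set may bind several of them. POU2AF1, a transcriptional co-activator of B cells, read 189 in conjunctiva, 44.3 in limbus and 22.6 in cornea (8.38-fold between conjunctiva and cornea). SDC1, which marks plasma cells but is also a proteoglycan of epithelial cells, went the other way, with 288 in conjunctiva, 619 in limbus and 1271 in cornea.

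For monocytes and macrophages, 19 of 24 further genes were higher in the conjunctiva than in the cornea, 5 of them at least 2-fold (5.68% of all genes). The other 5 were higher in the cornea, and the median difference was 0.34 on the log2 scale. CYBB, the catalytic subunit of the phagocyte oxidase, read 102 in conjunctiva, 48.7 in limbus and 41.3 in cornea, and NCF4, a regulatory subunit of the same enzyme, was highest in the limbus at 227, with 159.7 in the conjunctiva and 76.9 in the cornea. The neutrophil list did not lean to the conjunctiva. Of its 9 genes, 4 were higher there than in the cornea and 5 were lower, with 0 at least 2-fold apart. The neutrophil median for conjunctiva minus cornea was -0.07 on the log2 scale. For dendritic cells, 8 of 12 further genes were higher in the conjunctiva than in the cornea. Of these, 2 were at least 2-fold higher (5.68% of all genes), both with values under 100 in each tissue. The other 4 were higher in the cornea, and the median difference was 0.15. Of 10 further mast cell genes, 7 were higher in the conjunctiva than in the cornea, 0 of them at least 2-fold (5.68% of all genes). The other 3 were higher in the cornea, and the median difference of the list was 0.34 on the log2 scale. KIT, the receptor for stem cell factor, is made by mast cells and by other cells. It was among those 3, with 1607 in conjunctiva, 1791 in limbus and 6078 in cornea, opposite to CPA3 and to most of the list.

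**Figure D4:**
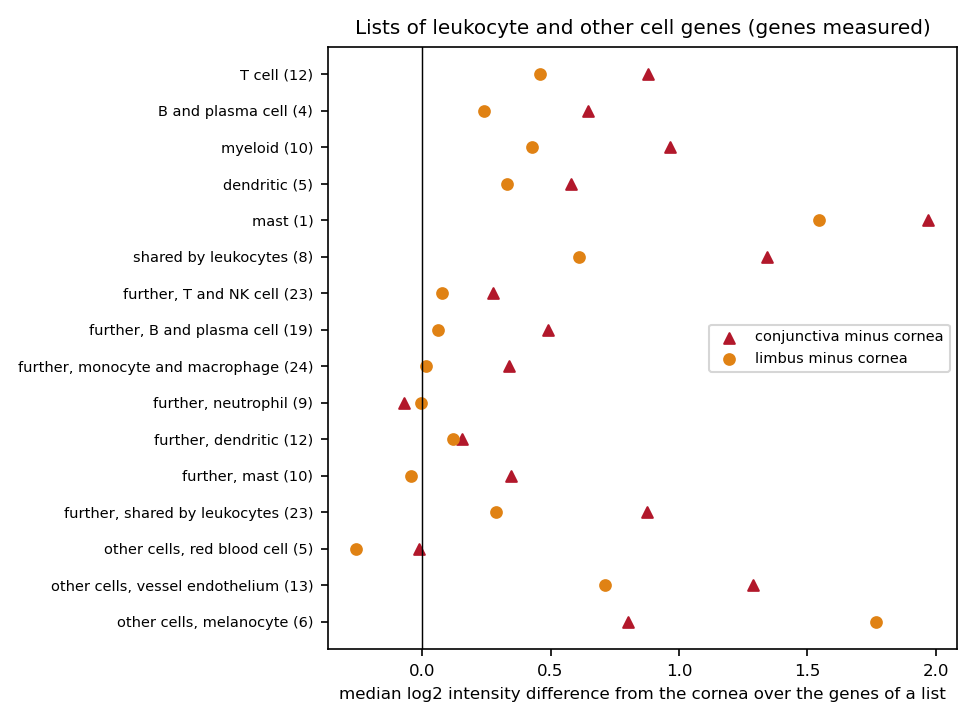
Median over the genes of a list of the log2 intensity difference from the cornea, for the conjunctiva (triangles) and the limbus (circles), with the number of genes measured in parentheses and 1 array per tissue. The upper 6 lists are the leukocyte lineage genes, with conjunctival medians between 0.58 and 1.97, and the vessel endothelium list has 1.29.

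Genes of other cells also differed between the tissues. All 13 of 13 genes of vessel endothelium were higher in the conjunctiva than in the cornea, 7 of them at least 2-fold, and their summed level was 3267 in conjunctiva, 2274 in limbus and 998 in cornea. The summed level of the 40 leukocyte genes was 5934, 3759.6 and 2578, in the same order. The adhesion molecule PECAM1, which endothelium shares with leukocytes and platelets, read 675 in conjunctiva, 462 in limbus and 45.9 in cornea, and VWF, made by endothelium and platelets, read 939.5 in conjunctiva, 407 in limbus and 106 in cornea. TIE1 (105, 117 and 21.0) and EMCN (162, 223 and 41.6) were highest in the limbus, and ROBO4 (173, 80.6 and 49.4) in the conjunctiva, each given for conjunctiva, limbus and cornea. Of 5 red blood cell genes measured, 2 were higher in the conjunctiva than in the cornea. The beta globin HBB read 414 in conjunctiva, 132 in limbus and 149.6 in cornea. The sum over the red blood cell genes was 611, 292 and 338, in the same order. Of the 6 melanocyte genes measured, 5 were highest in the limbus, such as MLANA with 113 in conjunctiva, 303 in limbus and 32.9 in cornea, a different order from that of most of the 40 leukocyte genes. Of the goblet and mucosal epithelium genes, 6 of 6 were at least 2-fold higher in the conjunctiva than in the cornea, with a median of 2.66. Beside MUC5AC (15.9-fold) the largest were the secreted trefoil factor TFF1 (18.7-fold) and the keratins KRT13 (6.43-fold), KRT4 (6.20-fold) and KRT19 (5.78-fold). KRT13 and KRT4 were highest in the limbus, at 5797 and 2084, against 1950 and 1122 in the conjunctiva. Of the corneal epithelium and keratocyte genes, 5 of 6 had a 2-fold or larger difference in favor of the cornea, with a median of -2.59 for conjunctiva minus cornea. These were KRT12 (149-fold), the stromal proteoglycans KERA (16.8-fold) and LUM (2.95-fold), the aldehyde dehydrogenase ALDH3A1 (8.87-fold) and the keratin KRT3 (4.11-fold). The part of epithelium, of vessels and of blood within them in the leukocyte values was not tested.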

How the data were processed

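Total RNA of 3 tissues was amplified, labeled and hybridized by the authors to Affymetrix U133 Plus 2.0 human arrays, 1 per tissue. The authors deposited linear intensities. They came from the justRMA routine, run on each array with a pool of reference arrays that stayed the same, so the arrays may still differ in scale. The submitters' processing notes name RMA, and its version is not given in the sources used here. The table holds no detection call, so the background of a probe set is unknown. Precision is limited by having 1 array per tissue.

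Gene symbols came from an array annotation that can be old. It gave 1 symbol to 41097 of 54675 probe sets and several to 1801, which were not used, and 11777 stayed without a name here. The symbols of 39 of the 42 leukocyte genes were also found in the RefSeq gene table of the vervet (mChlSab1.0.hap1).

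The deposited values were used without further normalization. Ratios and log2 differences were taken within a probe set, and no level was compared between probe sets, except for the choice of the probe set and for the sums of levels. A gene was counted when its value was at least 2-fold higher in a tissue, with no filter on level, and counts were read against all 19775 genes treated the same way. The 42 genes and the further lists were chosen with earlier results of these data known. All leukocyte genes measured are named. Of the further and other lists, the genes at least 2-fold apart between conjunctiva and cornea with a value of at least 100 in the higher tissue are named, at most the 5 with the largest difference per list. No statistical test was made. The steps that select genes at a 2-fold difference were tested on simulated data with known changes. Alternatives varied the probe set, a minimum value of 100, the scaling of the arrays, a 3-fold limit and a pseudocount of 32. Python 3.11.15, numpy 2.4.6, pandas 2.3.3 and matplotlib 3.10.9 were used.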

Additional observations from a re-analysis of the deposited data

How the results depend on the processing

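The 12 counts and medians of the 40 leukocyte genes were recomputed under the alternatives. With the 3-fold limit, and with a gene counted on any of its probe sets, only the 9 counts were recomputed. A count was taken as stable within 1.5 times the reported count, and a median, being a log2 difference, while the fold it stands for changed by less than 1.5 times. By that measure 102 values were stable and 12 moved, and no median changed sign. The limit for medians is wider than 0.47 for limbus minus cornea and 0.46 for conjunctiva minus limbus. Either of these would have counted as stable even after a fall to 0. Many of the stable values were counts of 0. These were the counts of the cornea over either or both other tissues, and of the limbus over the conjunctiva or both others. They stayed at 0 under every alternative, and a stricter limit could not have moved them. The 12 that moved were all among the other counts and medians. Among the stable medians, conjunctiva minus limbus fell from 0.46 to 0.14 with hybridization controls as the scale, and conjunctiva minus cornea from 0.93 to 0.57 with the pseudocount. Dividing each array by its hybridization controls, which moves the median of all genes to 0.33 (conjunctiva minus cornea), 0.61 (limbus minus cornea) and -0.29 (conjunctiva minus limbus) on the log2 scale, gave a median of 1.13 in place of 0.47 for limbus minus cornea, 26 genes in place of 16 at least 2-fold higher in the conjunctiva than in the cornea, 26 in place of 9 for limbus over cornea, and 3 in place of 5 in the conjunctiva than in the limbus and than in both other tissues. Taking the median of a gene's probe sets also left 3 in place of 5 for the last 2 counts, and a 3-fold limit left 2. The count of the limbus over the cornea fell from 9 to 3 with a 3-fold limit, to 3 with a value of at least 100 in the limbus, and to 4 with a pseudocount of 32. The cause was not tested, except that the stricter limits can only lower a count. Of the 16 genes, 13 were shared with the 15 found by the median over probe sets, where PTPRC, CD53 and ITGAM were lost and AIF1 and CD52 were added. Leaving out probe sets ending in _x_at, an alternative chosen after seeing the data, kept all 16. None of the 16 genes stood on such a probe set, so this alternative could not have removed any of them. No paired analysis was possible because each tissue has 1 array. Without detection calls, the signal over background is unknown, and 26 of the 40 genes reached 100 in any tissue.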
